A study of Caenorhabditis elegans with 6 samples.

Results

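The fatty acid elongases of Caenorhabditis elegans are the 9 genes named elo-1 to elo-9, taken by symbol from the array annotation. Of these, 8 were measured, each by 1 probe set, among 17118 measured genes in all. No probe set of the annotation used here names elo-8, which is not analysed here. Messenger RNA of whole adult worms was compared between 3 tyrosol arrays and 3 control arrays. Tyrosol is a phenolic alcohol of olive oil, and the series title ties it to a longer life of the worm. The tyrosol worms were kept from the egg on agar with 250 µM of the compound, and the control worms on agar with the ethanol vehicle alone, which stood at 0.1% in both. All worms of both groups carried the fer-15(b26) mutation, which makes sperm defective at the warm temperature of 25 °C at which they were raised, ate Escherichia coli OP50 and were collected on day 4 of adulthood. Every array thus reports on worms that produce no progeny of their own, and a comparison with fertile worms was not made.

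Fatty acids are lengthened in the endoplasmic reticulum by a cycle of condensation, reduction, dehydration and a last reduction, each turn of which adds a pair of carbons from malonyl-CoA. The ELO proteins carry out the condensation, the step that chooses the substrate and sets the pace, while the later steps are done by enzymes that all chains share. In C. elegans, ELO-1 and ELO-2 serve the chain that leads to the long polyunsaturated fatty acids, ELO-2 also lengthens palmitate, and ELO-5 and ELO-6 make the monomethyl branched-chain fatty acids that the worm needs to grow and that form the backbone of its sphingolipids. The intestine is the main site of fat synthesis and storage in the worm.

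No elongase gene was called as different between tyrosol and control worms. The rank product, which ranks the differences between arrays over all probe sets and calls at an estimated false discovery rate under 0.05, called 0 of the 8 measured genes higher and 0 lower. Over all 22548 probe sets tested it called 0.927% higher and 0.0266% lower, so that a count of 0 among 8 genes does not stand apart from the whole array. Limma, a linear model across all probe sets, also called 0 of the 8 after Benjamini-Hochberg adjustment, where it called 0.337% of all. With the replicate number as a block it called 0 of the 8 and 0.723% of all. Without the block 0 of the 8 had an unadjusted p under 0.05, where 7.33% of all had one. On the log2 scale the differences ran from -0.29 for elo-9 to 0.23 for elo-3. Their median was 0.043, and that of all probe sets was -0.021. A total of 5 genes lay above 0 and 3 below it, where 43.8% of all probe sets lay above 0.

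**Figure D1:**
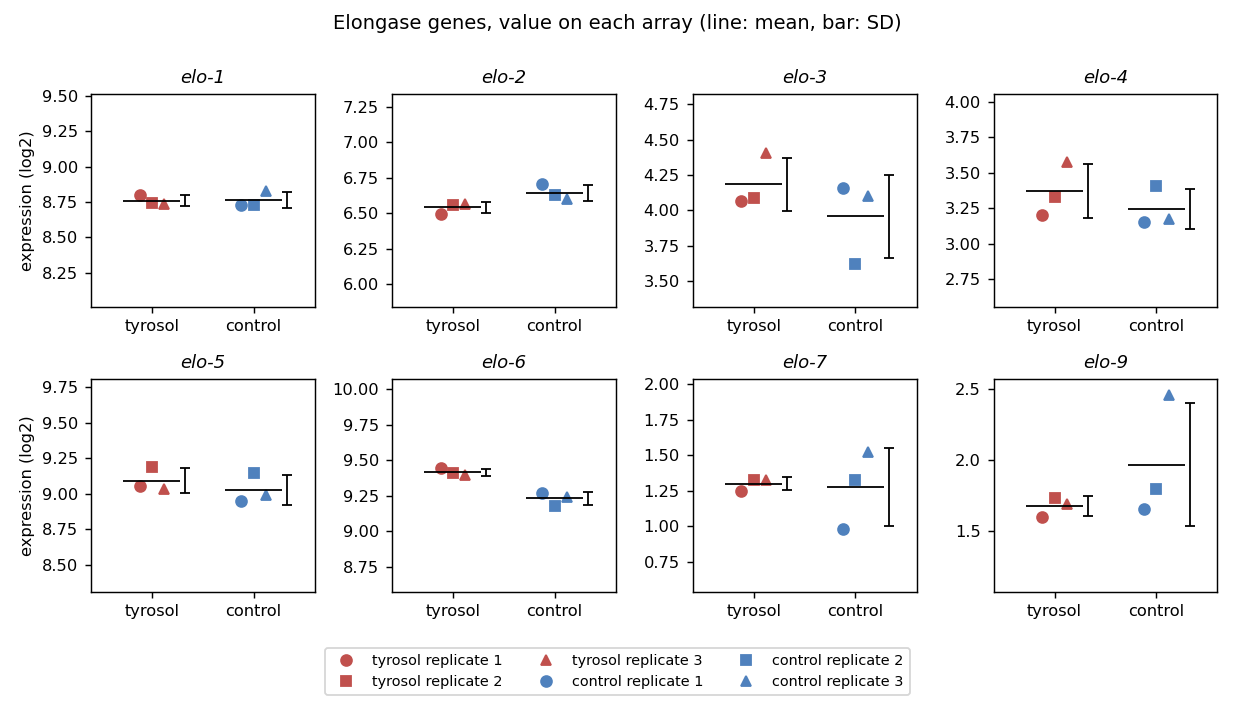
Expression of the 8 measured elongase genes on each array, as log2 values, in tyrosol worms (red, left) and control worms (blue, right). Symbols mark the replicate number, lines the group mean and bars the SD of 3 arrays; every panel spans the same height of log2 units at its own level. The groups stand clear of each other for elo-6, higher in tyrosol worms, and for elo-2, lower in tyrosol worms, and overlap for the other 6 genes.

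The elongases of the polyunsaturated branch gave small differences with narrow intervals. The gene elo-1 read 8.80, 8.75 and 8.73 in tyrosol replicates 1, 2 and 3, against 8.73, 8.73 and 8.83 in the control replicates (log2 expression, here and below). The groups overlapped and the difference was -0.0040 (SE 0.086, limma adjusted p = 0.995). Its 95% interval ran from 0.87 to 1.14 as a fold, tyrosol over control. The gene elo-2 read 6.50, 6.56 and 6.57 in tyrosol worms, against 6.70, 6.63 and 6.60 in control worms. All tyrosol values of elo-2 lay below all control values, by a small margin, with 6.57 in tyrosol replicate 3 against 6.60 in control replicate 3. The group means were 6.54 ± 0.039 in tyrosol worms and 6.64 ± 0.054 in control worms (SD, n = 3 each), a difference of -0.10 (SE 0.086, limma adjusted p = 0.85). As a fold this was 0.93, with an interval from 0.81 to 1.07.

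Of the elongases of the branched-chain fatty acids, elo-6 separated the groups and elo-5 did not. The signals of different probe sets are not comparable as amounts of RNA, so no order of levels among the genes is given. The gene elo-6 read 9.44, 9.41 and 9.40 in tyrosol replicates 1, 2 and 3, against 9.27, 9.18 and 9.24 in the control replicates. All tyrosol values lay above all control values, and the gap between the groups was wider than the span of either. The means were 9.42 ± 0.025 in tyrosol worms and 9.23 ± 0.049 in control worms (SD, n = 3 each), a difference of 0.19 (SE 0.085), or 1.14-fold with an interval from 0.99 to 1.30. This did not pass in either test (limma adjusted p = 0.71, false discovery rate of the rank product 1). The SE that limma gives is larger than the gene's own within-group SD of 0.039, because it also draws on the spread of all other probe sets. The gene elo-5 read 9.05, 9.19 and 9.03 in tyrosol worms, against 8.95, 9.15 and 8.99 in control worms. Replicate 2 was the highest in each group and the groups overlapped, with a difference of 0.064 (SE 0.099, limma adjusted p = 0.93). As a fold the interval of elo-5 ran from 0.89 to 1.22. Its difference was 0.014 without tyrosol replicate 2 and 0.12 without control replicate 2.

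Genes whose groups did not overlap were common on these arrays. Among the elongases 1 gene, elo-6, was wholly higher and 1 gene, elo-2, wholly lower, while over all probe sets 6.75% were wholly higher and 6.64% wholly lower in tyrosol worms. Without control replicate 2 the count was 4, with elo-4 and elo-5 added as wholly higher, and on those 5 arrays 11.8% of all probe sets were wholly higher and 12.3% wholly lower. All 3 differences between same-number arrays had 1 sign for 4 of the 8 genes, higher for elo-5 and elo-6 and lower for elo-2 and elo-9, which held for 32.2% of all probe sets. Between 3 and 3 arrays the smallest two-sided exact permutation p is 0.1, which both genes reach and which cannot pass a threshold of 0.05. Fewer cells that use a gene and less RNA per cell cannot be told apart in whole worms.

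Whether the elongases moved unequally was examined through the difference of 2 genes within an array, for all 15 pairs of the 6 genes with a mean signal above the median probe set. The value of elo-2 minus elo-6 was -2.95, -2.85 and -2.83 in tyrosol worms, against -2.57, -2.55 and -2.64 in control worms, a difference of -0.29 between the groups. The value of elo-1 minus elo-6 differed by -0.19 and that of elo-2 minus elo-3 by -0.33, and in these 3 pairs the groups stood wholly apart. Each gave the smallest p that 3 against 3 arrays allow (two-sided exact permutation p = 0.1, and 0.5 adjusted over the 15 pairs), so no pair could have passed and the values are a description. The pair of branched-chain elongases, elo-5 minus elo-6, differed by -0.12, with overlapping groups (two-sided exact permutation p = 0.3). Between same-number arrays it differed by -0.065, -0.18 and -0.12, of 1 sign, as the same-number differences were in 6 of the 15 pairs.

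The elongases elo-3 and elo-4, for which no role is given here, spread more widely between arrays. The gene elo-3 read 4.07, 4.08 and 4.40 in tyrosol worms, against 4.16, 3.62 and 4.10 in control worms. Control replicate 2 stood below the other 5 arrays and tyrosol replicate 3 above them. The difference of 0.23 (SE 0.16, limma adjusted p = 0.82) was 0.058 without control replicate 2 and 0.12 without tyrosol replicate 3. The gene elo-4 read 3.20, 3.33 and 3.58 in tyrosol worms, against 3.15, 3.41 and 3.18 in control worms. Its groups overlapped, and its difference of 0.12 (SE 0.13, limma adjusted p = 0.88) was 0.020 without tyrosol replicate 3, 0.21 without tyrosol replicate 1 and 0.21 without control replicate 2. The within-group SD was 0.25 for elo-3 and 0.17 for elo-4, beside a median of 0.15 over the 11274 probe sets above the median signal. It was 0.047 for elo-1, 0.047 for elo-2, 0.039 for elo-6 and 0.097 for elo-5.

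Little can be read from elo-7 and elo-9, whose mean signals lay below the median probe set. The gene elo-7 read 1.25, 1.33 and 1.33 in tyrosol worms, against 0.98, 1.33 and 1.52 in control worms. The middle value, 1.326, was the same to the last deposited digit on 3 of the 6 arrays, as happened on at least a pair of arrays for 9.55% of all probe sets, 1947 of these 2153 below the median signal. The difference of elo-7 was 0.022 (SE 0.14, limma adjusted p = 0.98) and lay between -0.13 and 0.15 without single arrays. The gene elo-9 read 1.59, 1.73 and 1.69 in tyrosol worms, against 1.65, 1.79 and 2.46 in control worms. Control replicate 3 alone stood high: the difference of -0.29 (SE 0.19, limma adjusted p = 0.81) was -0.048 without it. The deposited values carry no call of presence, so whether either transcript was detected is not known.

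**Figure D2:**
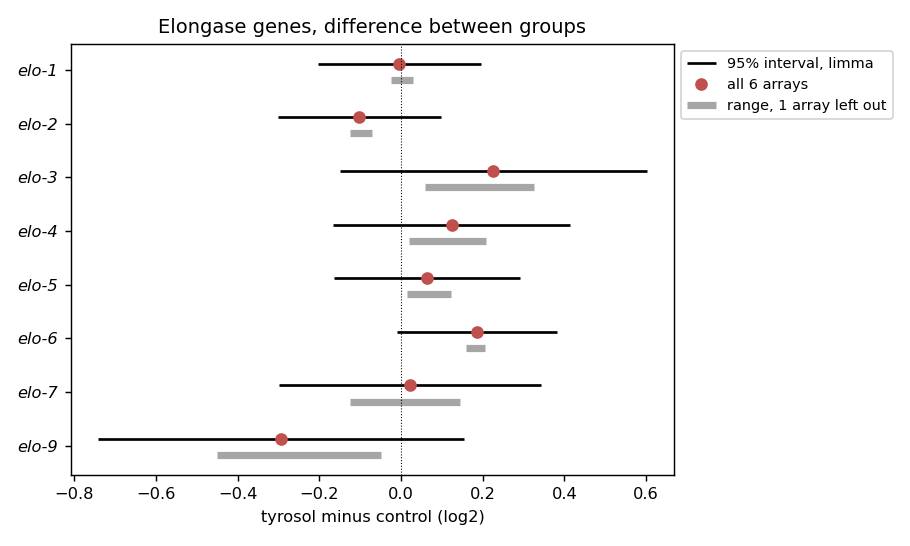
Difference between tyrosol and control worms for the 8 elongase genes on the log2 scale. Red points give the value over all 6 arrays, black lines the 95% interval from limma and grey bars the range of the value when 1 array is left out; every interval includes 0, and the range of elo-6, from 0.16 to 0.21, stays farthest above it among the genes that lie above 0.

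The precision of these arrays bounds what could have been missed. For the 6 elongases above the median signal, the 95% intervals together span from 0.81-fold to 1.52-fold, tyrosol over control, with elo-2 at the low end and elo-3 at the high end. The interval of each single gene is narrower than that span, from 0.87 to 1.14 for elo-1 and from 0.99 to 1.30 for elo-6. For each gene, changes inside its own interval are not excluded by the data.

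In the genome, 6 of the 8 measured genes lie on chromosome IV, elo-4 on III and elo-9 on II. The elo-1 gene has elo-7 as its next protein-coding neighbour, and elo-5 and elo-6 have 3 protein-coding genes starting between them. Within these sets of neighbours the differences were -0.0040 for elo-1 and 0.022 for the dim elo-7, and 0.064 for elo-5 and 0.19 for elo-6.

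For each elongase above the median signal, the genes of most similar pattern were sought among 8110 genes by Pearson's r over the 6 arrays, as a description without a test. They were sup-36 (r = 0.996) and oig-2 (r = 0.996) for elo-5, C17H11.6 (r = 0.996) and M01E5.3 (r = 0.993) for elo-6, and T11F8.4 (r = 0.992) and mca-2 (r = 0.979) for elo-2. For elo-3 they were sams-4 (r = 0.979) and T25B9.9 (r = 0.977), for elo-4 K03B8.8 (r = 0.983) and polg-1 (r = 0.979), and for elo-1 F16F9.1 (r = 0.966) and sel-15 (r = 0.964). All share the same 6 arrays and their normalisation. With 8110 candidates and 6 arrays, values of r this high can also arise between unrelated genes.

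The enzymes that complete the elongation cycle, listed with related dehydrogenase genes of the stdh family, were not called either. Of 7 measured genes the rank product called 0 higher and 0 lower, where it called 0.927% and 0.0266% of all probe sets. Limma called 0, where it called 0.337% of all. An unadjusted p under 0.05 was found for 0 of the 7, where 7.33% of all probe sets had one. The median difference was 0.028. Of the 7, 3 lay below the median signal, namely stdh-2, stdh-3 and stdh-4. The reductase gene let-767, the dehydratase gene hpo-8 and the last reductase gene art-1 differed by 0.077 (SE 0.094), 0.028 (SE 0.089) and 0.049 (SE 0.088). The related dehydrogenase gene stdh-1 read 7.52, 7.65 and 7.58 in tyrosol worms, against 7.38, 7.47 and 7.28 in control worms. Its groups stood apart, with a difference of 0.21 (SE 0.095, limma adjusted p = 0.70). The dim stdh-2 stood apart the other way, at -0.21 (SE 0.10, limma adjusted p = 0.74). Over all probe sets 6.75% were wholly higher and 6.64% wholly lower in tyrosol worms.

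Upstream of the elongases, 0 of 3 genes that supply or remove malonyl-CoA and make palmitate were called by the rank product or limma. Of the 3, 1 had an unadjusted p under 0.05, where 7.33% of all probe sets had one. That gene was the fatty acid synthase fasn-1, which read 6.61, 6.38 and 6.48 in tyrosol worms, against 6.18, 6.33 and 5.93 in control worms. Its groups stood apart with a difference of 0.34 (SE 0.12, limma adjusted p = 0.56). Its other probe set did not show this: it read 5.87, 4.03 and 5.80 in tyrosol worms, against 5.50, 5.49 and 5.38 in control worms, a difference of -0.23 (SE 0.43) with all arrays and of 0.37 (SE 0.097) without tyrosol replicate 2. The acetyl-CoA carboxylase gene pod-2, which makes the malonyl-CoA that elongases use, read 5.31, 4.22 and 5.31 in tyrosol worms, against 5.29, 5.14 and 5.33 in control worms. Tyrosol replicate 2 again stood low, and the difference of -0.31 (SE 0.27, limma adjusted p = 0.86) was 0.059 without it. For mlcd-1, whose product breaks malonyl-CoA down, the difference of -0.19 (SE 0.15) was -0.018 without that array.

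**Figure D3:**
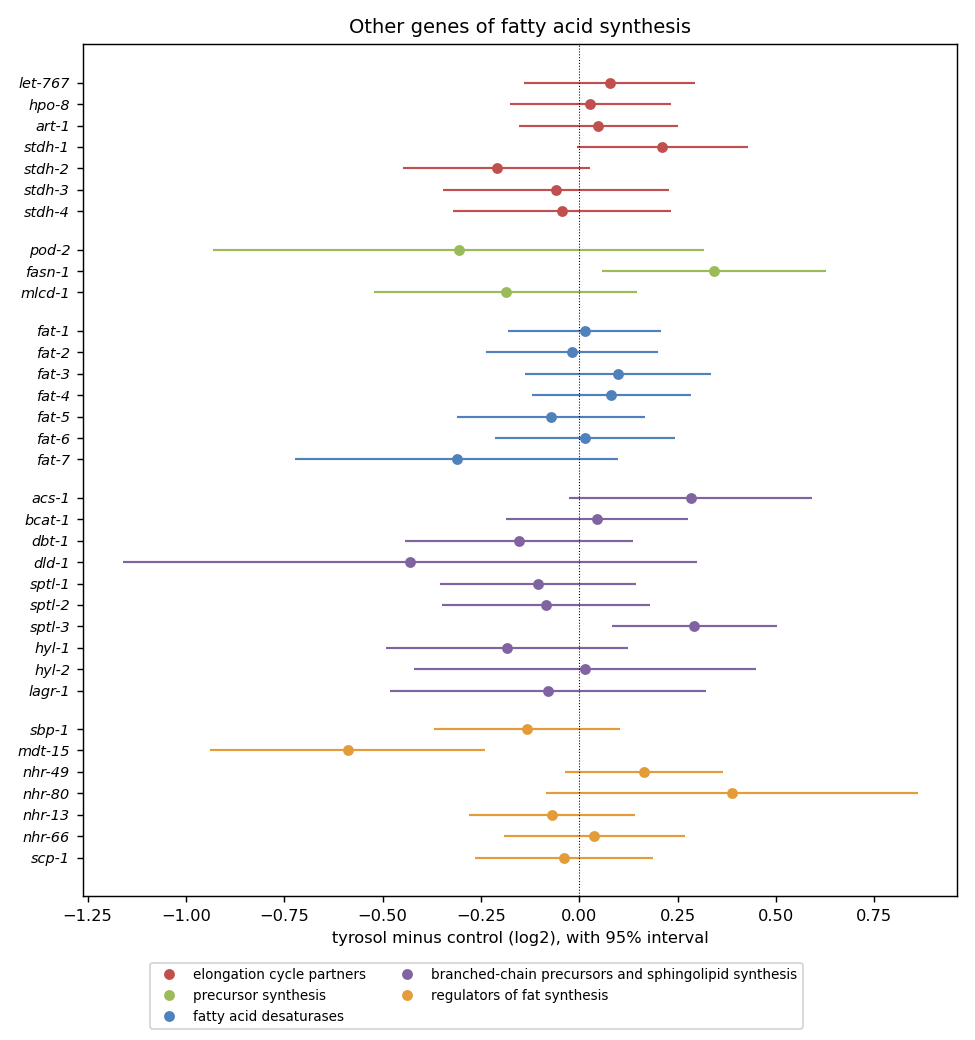
Difference between tyrosol and control worms for 34 other genes in 5 lists, on the log2 scale with 95% intervals from limma. The lists are elongation cycle partners, precursor synthesis, desaturases, branched-chain precursors with sphingolipid synthesis, and regulators of fat synthesis. The intervals of 3 genes leave 0 out before adjustment, those of fasn-1 and sptl-3 above it and that of mdt-15 below it, and 0 of the 34 genes were called.

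The desaturases, which act in turn with ELO-1 and ELO-2 on the same chains, did not pass either. Of 7 genes the rank product called 0 higher and 0 lower, where it called 0.927% and 0.0266% of all probe sets. Limma called 0, and 0 had an unadjusted p under 0.05, where 7.33% of all probe sets had one. The genes fat-1, fat-2, fat-3 and fat-4 of polyunsaturated synthesis differed by 0.013 (SE 0.085), -0.019 (SE 0.095), 0.099 (SE 0.10) and 0.081 (SE 0.088). The stearoyl-CoA desaturase genes fat-6 and fat-7 differed by 0.015 (SE 0.099) and -0.31 (SE 0.18), fat-7 with overlapping groups and at -0.12 without tyrosol replicate 2.

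Around the branched-chain elongases, 0 of 10 genes that prepare branched-chain precursors or build sphingolipids were called by the rank product or by limma. Of the 10, 1 had an unadjusted p under 0.05, where 7.33% of all probe sets had one. This was sptl-3, a subunit of serine palmitoyltransferase, which read 5.82, 5.75 and 5.81 in tyrosol worms, against 5.50, 5.59 and 5.41 in control worms. The groups stood apart, with a difference of 0.29 (SE 0.091, limma adjusted p = 0.44), while its dimmer probe set differed by -0.11 (SE 0.10) with overlapping groups. The acyl-CoA synthetase gene acs-1, which activates branched-chain fatty acids, differed by 0.28 (SE 0.13, limma adjusted p = 0.73) on overlapping groups, by 0.17 without tyrosol replicate 2 and by 0.054 (SE 0.13) on its dimmer probe set. The dehydrogenase subunit gene dld-1 read 6.55, 5.32 and 6.66 in tyrosol worms, against 6.71, 6.43 and 6.67 in control worms, and its difference of -0.43 (SE 0.32) was -0.0026 without tyrosol replicate 2.

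Among 7 regulators of fat synthesis the rank product and limma called 0. Of the 7, 1 had an unadjusted p under 0.05, where 7.33% of all probe sets had one. The gene mdt-15, which encodes a Mediator subunit that works with SBP-1 and NHR-49 to drive fatty acid desaturase genes, read 4.01, 4.26 and 4.34 in tyrosol worms, against 4.72, 5.09 and 4.57 in control worms. All tyrosol values lay below all control values, with a difference of -0.59 (SE 0.15), or 0.66-fold. It did not pass after adjustment (limma adjusted p = 0.29, and 0.19 with the replicate number as a block). Its partners sbp-1 and nhr-49 differed by -0.13 (SE 0.10) and 0.16 (SE 0.087). For nhr-49 all tyrosol values lay above all control values on its brighter probe set, with overlapping groups on the dimmer one. Of the 34 genes of the 5 lists, 4 were wholly higher and 2 wholly lower, where 6.75% and 6.64% of all probe sets were. The rank product called 0 of the 34, where it called 0.927% of all probe sets higher and 0.0266% lower.

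**Figure D4:**
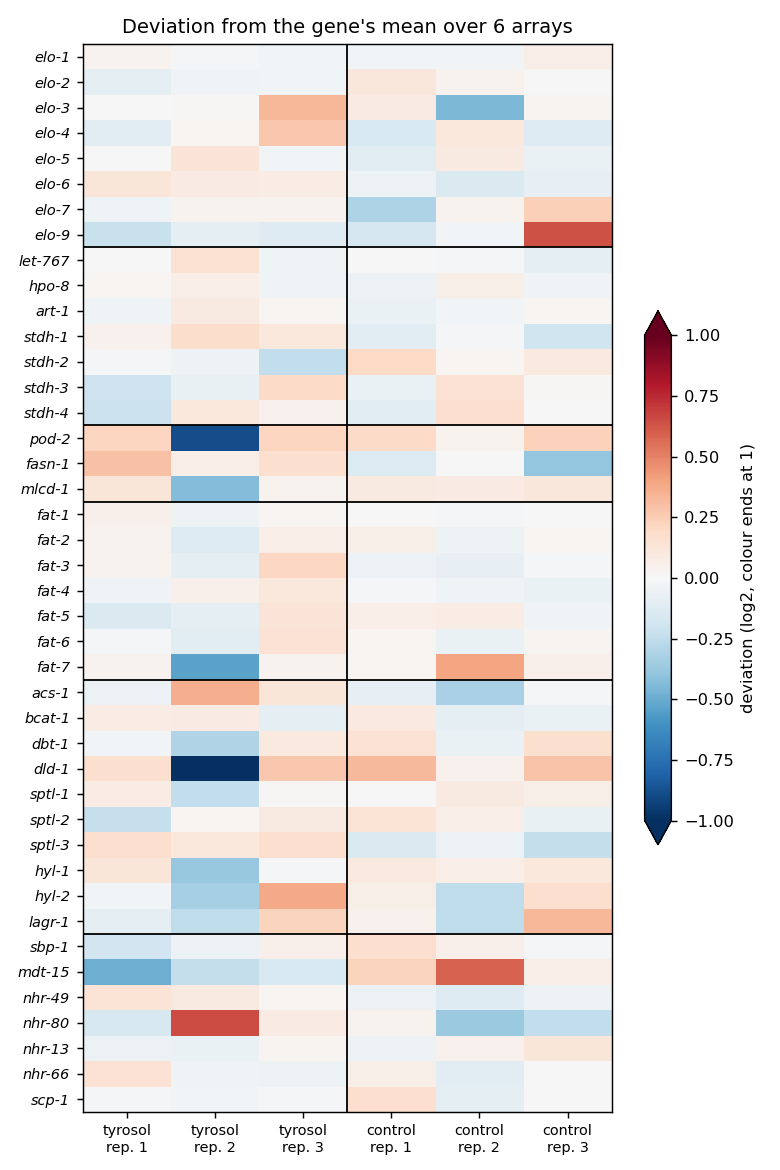
Deviation of each array from the gene's mean over 6 arrays (log2, red above and blue below the mean) for 8 elongases and 34 other genes of fatty acid synthesis, with tyrosol arrays left of control arrays and black lines between the lists. Tyrosol replicate 2 holds the lowest value for 14 of the 34 other genes and for 0 of the 8 elongases, beside 25.5% of all probe sets.

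One array set several of these values. Tyrosol replicate 2 had the lowest value of the 6 arrays for 14 of the 34 other genes, or 41.2%, against 25.5% of all probe sets and 0 of the 8 elongases. On that array the 3' probe sets of poly-A control transcripts exceeded the middle ones by 2.18 on the log2 scale, against 1.16 and 1.40 on the other tyrosol arrays and 1.11 to 1.53 on the control arrays. This is the mean of the 3 transcripts, of 5, whose 3' probe set averaged above 4. Of the fainter transcripts, LysX went the other way, at 0.37 on that array against 0.49 to 1.05 on the other 5, and TrpnX lay between -0.20 and 0.016 on all arrays. The part of this difference in the low values was not tested. In the elongases, tyrosol replicate 2 lay between -0.15 and 0.15 of the mean of the other tyrosol arrays.

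The cell types of the worm were described with marker lists. These lists were chosen with earlier results of these data known, so the counts in them are no independent check. The 10 intestinal markers were all above the median signal and 0 were called, with a median difference of -0.098 and a mean level of 6.83 to 6.99 in tyrosol worms and 6.98 to 7.01 in control worms. Of the 10, 2 had an unadjusted limma p under 0.05, where 7.33% of all probe sets had one. In tyrosol worms 0 were wholly higher and 3 wholly lower, where 6.75% and 6.64% of all probe sets were. These 3 were the intestinal GATA factor genes elt-2, at -0.29 (SE 0.088, limma adjusted p = 0.44), and elt-7, at -0.34 (SE 0.12, limma adjusted p = 0.50), and the intermediate filament gene ifb-2, at -0.15 (SE 0.093, limma adjusted p = 0.79). Of 8 sperm markers 6 were called higher in tyrosol worms, where 0.927% of all probe sets were. The mean levels of the 8 were 4.06 to 4.22 in tyrosol worms and 2.54 to 3.32 in control worms. Of those called, msp-19, msp-31, msp-36, msp-77 and gsp-3 were read by probe sets of the cross-hybridising type, and ssp-16 was not. The msp probe sets read alike, from 3.01 to 3.34 in control replicate 1, so they may not be separate measurements. The markers spe-9, at 0.011, and spe-11, at 0.25, were not called. Of 8 measured epidermal markers 3 were called higher, mlt-11, noah-1 and wrt-10, beside the same 0.927% of all probe sets. The others were not called and went both ways. Above 0 lay rol-6, at 0.11, and col-19, at 0.13 and wholly higher. Below 0 lay elt-3, at -0.14, dpy-7, at -0.029, and bli-1, at -0.084 and wholly lower. Markers of muscle (7), neurons (6) and the germ line (7) had 0 called, where 0.927% of all probe sets were called higher and 0.0266% lower. Of the 7 muscle markers 3 were wholly higher and 0 wholly lower. The 3 were unc-15, at 0.18, act-4, at 0.35, and unc-22, at 0.24. An unadjusted limma p under 0.05 was found for 2 muscle markers and for 0 neuron or germ line markers. Of the neuron and germ line markers 0 were wholly higher or wholly lower. The part of these shifts in the elongase values was not tested.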

How the data were processed

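Per the series' design text, the authors normalised the Affymetrix C. elegans Genome Arrays with RMA (background subtraction, quantile normalisation, probe set summary), whose version the sources do not state. The deposited log2 values run from 0.47 to 12.53, and the base of the logarithm was read from that range. Of 22625 probe sets 77 controls were left out. Names came from the platform annotation, updated through Entrez numbers with a RefSeq table (assembly WBcel235, names and neighbours alone). A gene is represented by its probe set of highest mean over the 6 arrays.

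The rank product, the test of the design text, was programmed in Python 3.11.15 with numpy 2.4.6 (9 differences, 100 permutations). Limma 3.58.1 in R 4.3.3 gave SE, intervals and adjusted p-values over all 22548 probe sets; both were tested on simulated data. The labels name replicates without saying whether they came from separate cultures, so p-values measure only the spread between these arrays, whose number limits the precision (median SE 0.12). Same-number arrays deviated together from their group means (r = 0.11, 0.37 and 0.26). Arrays of unlike number gave r from -0.374 to 0.275. Tyrosol replicate 1 went more with control replicate 3 (r = 0.275) than with control replicate 1, so the number is not shown to be a pairing. A limma fit blocked on replicate number was run beside, as were other normalisations, filters and sets of arrays. The genes named are the elongases, list members (the called ones, those of lowest p and those whose role is explained) and, per elongase above the median signal, the 2 of most similar pattern. Members and lists were chosen with earlier results of these data known.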

Additional observations from a re-analysis of the deposited data

How the results depend on the processing

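The rank product or limma called 0 of the 8 elongases with all arrays and under all 17 alternatives run, and 0 of the genes of the 5 other lists. Each elongase kept its side of the threshold in all 134 values. The replicate block changed no call of an elongase, and it moved the count of all probe sets that limma calls to 163, against 76 without it. The median elongase difference of 0.043 ran from 0.0012 to 0.067 when 1 array was left out. It was 0.094 without dim probe sets, which leave elo-7 and elo-9 out. Without single arrays elo-1 ran from -0.024 to 0.029 and elo-7 from -0.13 to 0.15, across 0, and the other 6 genes kept their sign. The count of elongases whose groups do not overlap, 2 with all arrays, ran from 2 to 4 when 1 array was left out, where 20.6% to 26.1% of all probe sets did not overlap, against 13.4% with all arrays. It was 4 without both replicate 2 arrays, beside 39.3% of all, and 1 after quantile normalisation of the deposited values, where elo-2 overlapped, beside 13.8%. With the replicate block, counted as 3 same-number differences of 1 sign, it was 4, and this held for 32.2% of all probe sets. Over all probe sets the rank product called 209 higher and 6 lower. Without tyrosol replicates 1, 2 and 3 it called 100, 106 and 99 higher, with 11, 31 and 2 lower. Without single control arrays it called 174 to 211 higher and 0 to 2 lower, and without both replicate 2 arrays 97 higher and 6 lower. On all 6 arrays limma called 74 higher and 2 lower. With the 3' to middle difference as a covariate, limma on all 6 arrays called 160 higher and 16 lower. Each elongase has 1 probe set, so the choice between probe sets cannot move its value. None carries the suffix _x_at or _f_at, by which probe sets were left out as cross-hybridising. Those of elo-5 and elo-6 carry the suffix _s_at, and whether they also read other transcripts was not tested.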
